A study of Mus musculus with 3 samples.

Results

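Cluster 4 of the authors' clustering holds epidermal suprabasal keratinocytes from the distal colon and anus of mice. Its members are all cells that the deposited cell table gives the cluster number 4 and the annotation Keratinocytes, 2668 of 20321 keratinocytes and of 37080 cells in all. The study followed colitis and recovery from it: C57Bl/6 mice, 6 weeks old at purchase, were left untreated (day 0) or received 3% dextran sulfate sodium (DSS), a detergent-like polymer that injures the colon epithelium, in the drinking water for 6 days. Tissue was taken at day 7, when colitis is severe, or at day 42, when the mice have recovered. Each day is 1 droplet library made from the pooled distal colon and anus of 5 mice, digested with trypsin, depleted of dying cells with an annexin V kit and filtered. With 1 pool for each day no test between days is possible, so differences are given as sizes, and their 95% Poisson intervals on unique molecular identifiers (UMIs, counts of RNA molecules) or exact Clopper-Pearson intervals on cells cover counting error only. The spread between mice is not measured, and day cannot be told apart from library.

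The epidermis is a layered epithelium. Basal keratinocytes divide on the basement membrane and carry keratins 5 and 14; when a cell leaves the basal layer it switches to keratins 1 and 10, builds desmosomes, and later makes the loricrin and filaggrin of the granular layer, from which the dead cornified barrier forms. At the anal canal this epidermis meets the mucosal squamous epithelium, whose suprabasal cells carry keratins 4 and 13 instead, and then the columnar epithelium of the colon.

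Cluster 4 counted 697 cells in the untreated library, 1315 in the day 7 and 656 in the day 42 library, with 9674808, 18996896 and 4737163 UMIs in total. The median cell held 12923 UMIs at day 0, 14124 at day 7 and 6392 at day 42, so the day 42 library was the shallowest, and shares of cells with a UMI are also given after each cell was thinned to 2000 UMIs. Cells with fewer were then left out, 16, 56 and 16 in cluster 4 (day 0, day 7 and day 42), while 114 of 219, 67 of 118 and 26 of 121 T cells remained. Mitochondrial transcripts made up a median of 8.18% to 9.11% of UMIs. A total of 139 cell barcodes occur in more than 1 library, and 10, 10 and 2 cells of cluster 4 (day 0, day 7 and day 42) carry such a barcode. Scrublet, a caller of doublets, marked 3, 0 and 10 cells of the cluster, and 0 of the whole day 7 library, where it did not work; no doublets were removed, and the shares of cells, the counts of genes past 2-fold, the ratios of named genes and the list medians were also computed without the cells with the highest scores.

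Cluster 4 bore the keratins of its label. Krt10, the suprabasal type I keratin, stood at 11244 CPM (UMIs of the gene in each 1000000 UMIs of the cluster) at day 0, 9913 at day 7 and 8780 at day 42. Its partner Krt1 stood at 6922, 7852 and 5711 CPM. At each day at least 95.1% of the cells held a Krt10 UMI, against 8.22%, 30.5% and 8.26% of the T cells, which should lack it and whose median depth was 2064, 2260 and 1393 UMIs. The thinned shares were 93.5%, 88.1% and 86.9% in cluster 4 and 7.89%, 31.3% and 11.5% in T cells. Krt10 was thus the main keratin at all 3 days, with day 0 the highest and day 42 the lowest.

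The other 4 marker genes stayed within 2-fold of their day 0 level. Calm4, a calmodulin-like calcium-binding protein of differentiating keratinocytes, measured 6266, 5055 and 4319 CPM at day 0, day 7 and day 42. Krtdap, a secreted protein of differentiating keratinocytes, measured 5895, 4904 and 5479 CPM. Serpinb12, a serine protease inhibitor, measured 334, 308 and 222 CPM. Mt4, the metallothionein of stratified epithelia, was the only 1 of these 4 that was highest at day 7, with 1324, 2266 and 1478 CPM. Krt1, given above, was also highest at day 7. None of the 6 markers passed 2-fold between any day and day 0. Their log2 ratios, computed here and below with 10 CPM added to both values, lay between -0.31 and 0.77 at day 7 and between -0.57 and 0.16 at day 42. Serpinb12 (-0.57) and Calm4 (-0.54) were still among the 12 lowest ratios of the named genes at day 42.

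**Figure D1:**
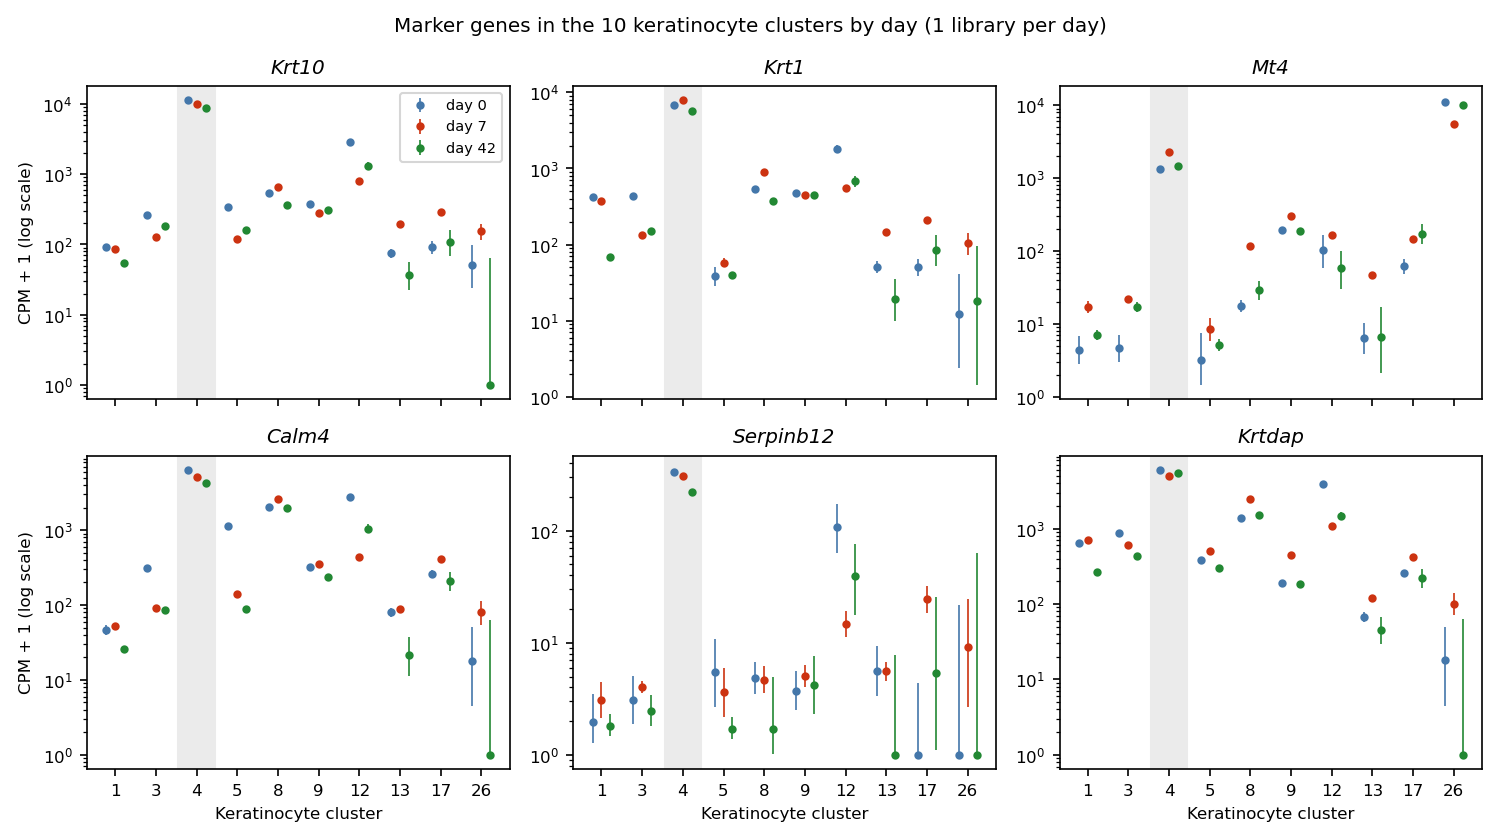
Level of the 6 marker genes (CPM plus 1, log scale) in the 10 keratinocyte clusters, with 1 point for each day and 95% Poisson intervals as bars; cluster 4 is shaded. Krt10, Krt1 and Serpinb12 stand about 10-fold or more above the next cluster when days are summed, while Mt4 is higher in cluster 26.

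Among the 10 keratinocyte clusters, with days summed, cluster 4 held the highest level of 5 of the 6 markers. Krt10 stood 11.3-fold, Krt1 10.2-fold and Serpinb12 16.3-fold above the next cluster, but Calm4 only 2.29-fold and Krtdap 2.64-fold, in both cases above cluster 8 (2315 and 1998 CPM there). Mt4 reached 1881 CPM in cluster 4 against 7590 CPM in cluster 26, a cluster of 35 cells. Because the cells were clustered on these same values, the contrast describes the cluster and tests nothing. By the correlation of log2 profiles over 4448 genes the most similar clusters were 8 (r = 0.901) and 9 (r = 0.879), and cluster 5, the Krt13-rich mucosal cluster, stood at 0.832. The most enriched genes next to Krt10 and Krt1 included 2 protease inhibitors of the serpin family, Serpinb3a and Serpinb12, the stefins Stfa1, BC100530 and Stfa3, which inhibit cysteine proteases, and Asprv1, an aspartic protease that processes filaggrin.

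Cluster 4 made up a smaller share of keratinocytes at each later day. It held 21.0% of keratinocytes at day 0 (697 of 3316, interval 19.6% to 22.4%), 14.6% at day 7 (1315 of 9035, 13.8% to 15.3%) and 8.23% at day 42 (656 of 7970, 7.64% to 8.86%). The day 7 share depended on the denominator. Without clusters 12, 13, 17 and 26 the shares were 24.3%, 22.02% and 8.58%, so that day 7 lay close to day 0 and only day 42 stood apart. Of all cells in the library the cluster held 6.32%, 9.15% and 5.62%. Other clusters moved these shares as well: cluster 12 counted 1668 cells at day 7 against 51 at day 0, and cluster 5 2153 cells at day 42 against 87. How much anal tissue each dissection held was not measured, and its part in the shares was not tested.

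Within the cluster most transcripts kept their level. Of 2402 genes that reached 50 CPM in 1 or both libraries, 2225 (92.6%) lay within 0.5 of no change on the log2 scale at day 7 against day 0. Past 2-fold, 30 genes were higher at day 7 (1.25% of those measured) and 17 were lower (0.708%). At day 42 against day 0, 10 of 2349 genes were higher (0.426%) and 2 lower (0.0851%), and 2304 (98.1%) lay within 0.5. At day 42 against day 7, 19 of 2363 genes were higher (0.804%) and 21 lower (0.889%). These comparisons share libraries. Since the authors assigned cells to the cluster by their expression, cells that differed more may stand in other clusters. The median log2 ratio over all measured genes was 0.00 at day 7 and -0.03 at day 42 against day 0. Clusters 8 and 9, the most similar clusters, had 1.60% and 2.70% of their genes past 2-fold in either direction at day 7, against 1.96% in cluster 4 and 8.62% in cluster 5, whose day 0 library holds 87 cells.

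**Figure D2:**
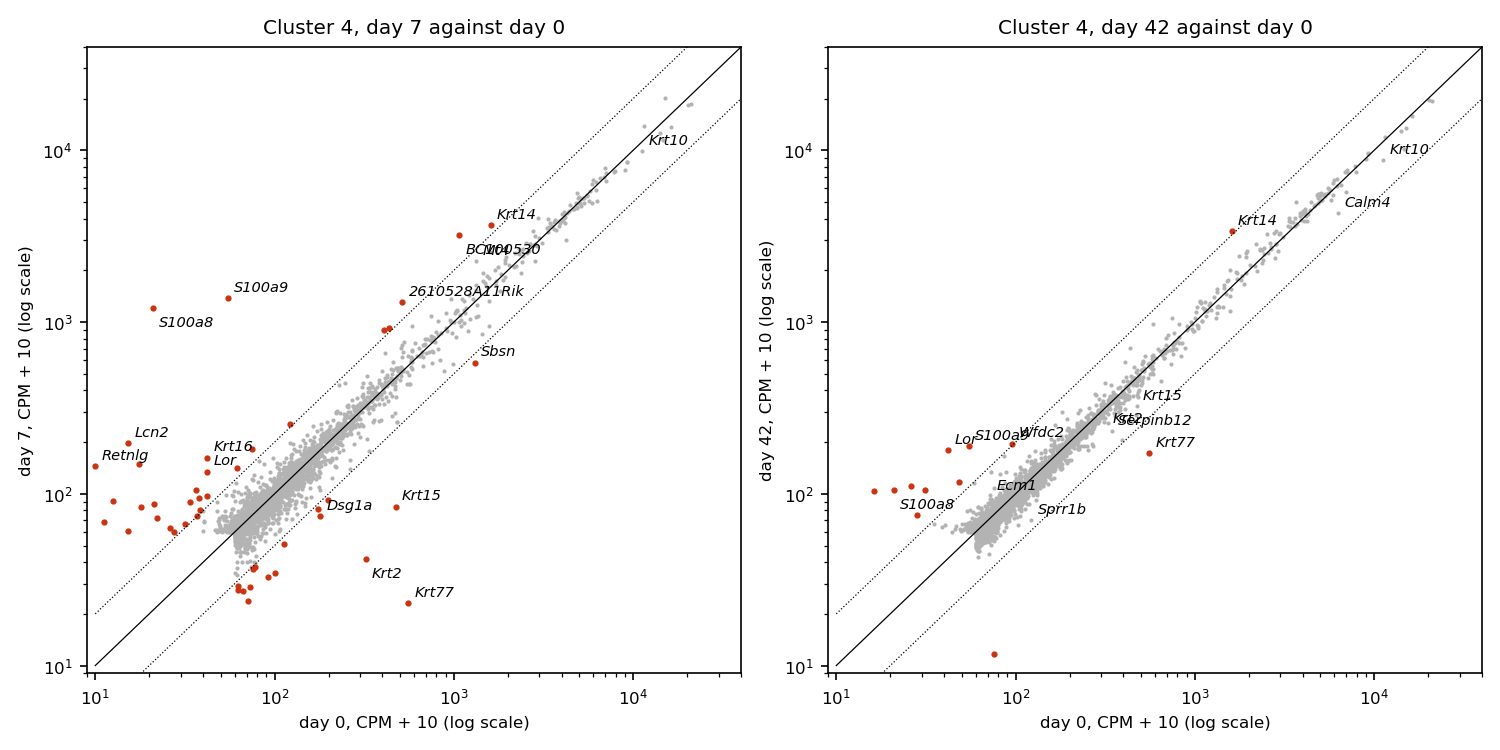
Level of each gene in cluster 4 (CPM plus 10, log scales) at day 7 (left) and day 42 (right) against day 0. Red points lie past 2-fold (dotted lines), 30 above and 17 below at day 7, 10 above and 2 below at day 42.

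The highest ratios at day 7 belonged to S100a8 and S100a9, the 2 subunits of calprotectin, an antimicrobial protein that neutrophils hold in bulk and that injured keratinocytes also make. S100a8 measured 10.9 CPM in the untreated library (interval 8.88 to 13.1), 1192 CPM at day 7 (from 1176 to 1207) and 94.99 CPM at day 42 (from 86.4 to 104), a log2 ratio of 5.85 at day 7 and 2.33 at day 42. S100a9 measured 45.1, 1362 and 180 CPM, with log2 ratios of 4.64 and 1.78. The intervals of the 3 days do not overlap for either gene: both were high at day 7 and between the other days at day 42. Lcn2, an antimicrobial protein that binds bacterial siderophores, measured 5.27, 187 and 13.3 CPM. Wfdc17, a small secreted protein with a whey acidic protein domain, measured 7.44, 139 and 42.9 CPM.

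Neutrophil RNA moved with these 4 genes. S100a8 stood at 89485 CPM in the 1513 neutrophils of the day 7 library. It also reached 1718 CPM in T cells, 1255 in fibroblasts, 1143 in endothelial cells and 820 in colonocytes of that library, so the level of 1192 CPM in cluster 4 lay within the range of these 4 cell types. Per cell, the median cluster 4 cell held 4 S100a8 UMIs at day 7, the median colonocyte 1, and the median T cell, fibroblast and endothelial cell 0, all at lower depth. A UMI of S100a8 occurred in 79.7% of cluster 4 cells, 23.7% of T cells and 54.0% of colonocytes. After thinning these shares were 54.7% (51.9% to 57.5%), 17.9% (9.61% to 29.2%) and 32.1% (28.9% to 35.5%). Retnlg, a resistin-like gene of neutrophils, was absent from cluster 4 at day 0 and measured 134 CPM at day 7, with 60.2% of its UMIs in 10 cells. For each Retnlg UMI cluster 4 held 8.87 UMIs of S100a8, neutrophils 3.09 and T cells 5.09 at day 7; at day 42 the order was the other way, with 4.33 in cluster 4 and 7.18 in neutrophils. Apart from S100a8, S100a9 and Retnlg, the 7 remaining neutrophil markers summed to 20.8 CPM (day 0), 58.2 CPM (day 7) and 31.5 CPM (day 42). Of the day 0 sum 1 gene gave 17.4 CPM, and 2 of the 7 were at 0. That sum thus rests mostly on 1 gene. In the later libraries the highest of the 7 measured 15.3 CPM (day 7) and 16.5 CPM (day 42). Without cells that hold a Retnlg UMI, a choice made after the data were seen, the log2 ratios at day 7 were 5.35 for S100a8, 4.01 for S100a9 and 3.44 for Lcn2, while at day 42 those of S100a8 and S100a9 were 0.68 and 0.52, no longer past 2-fold. Without the cells with the highest doublet scores the day 42 ratio of S100a8 was 1.17. Cluster 9 reached a similar S100a8 level, 1122 CPM at day 7. Leaving out cells with a Retnlg UMI does not remove neutrophil RNA from cells without such a UMI. The part of neutrophil RNA in the ratios was thus not tested.

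The 2 calprotectin genes lie in the same cluster of S100 genes on chromosome 3 of the mouse (build GRCm38.p6), S100a8 at chr3:90669071-90670034 and S100a9 at chr3:90692630-90695721, 22.6 kb apart. Their promoters are shown because both genes moved together, beside that of 2610528A11Rik (chr14:37102140-37110101), a gene also higher at day 7 and spread over most cells of the cluster, described below. Each run is RefSeq sequence of GRCm38.p6 from 250 bases before to 50 after 1 annotated start, and capitals mark matches to TATANA, the core of a TATA box, on either strand, with overlapping matches merged.
S100a8 (chr3:90668821-90669120, + strand): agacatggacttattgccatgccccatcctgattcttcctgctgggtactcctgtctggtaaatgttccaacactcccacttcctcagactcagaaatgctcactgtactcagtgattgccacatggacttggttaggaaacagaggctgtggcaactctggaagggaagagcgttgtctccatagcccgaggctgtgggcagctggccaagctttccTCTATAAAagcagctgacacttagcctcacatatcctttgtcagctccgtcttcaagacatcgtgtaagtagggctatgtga
S100a9 (chr3:90695672-90695971, - strand): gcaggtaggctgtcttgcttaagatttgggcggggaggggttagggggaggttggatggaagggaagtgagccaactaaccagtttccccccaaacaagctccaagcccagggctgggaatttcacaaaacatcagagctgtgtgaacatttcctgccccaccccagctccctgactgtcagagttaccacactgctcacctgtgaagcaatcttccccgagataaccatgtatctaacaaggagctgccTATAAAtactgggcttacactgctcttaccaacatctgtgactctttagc
2610528A11Rik (chr14:37110052-37110351, - strand): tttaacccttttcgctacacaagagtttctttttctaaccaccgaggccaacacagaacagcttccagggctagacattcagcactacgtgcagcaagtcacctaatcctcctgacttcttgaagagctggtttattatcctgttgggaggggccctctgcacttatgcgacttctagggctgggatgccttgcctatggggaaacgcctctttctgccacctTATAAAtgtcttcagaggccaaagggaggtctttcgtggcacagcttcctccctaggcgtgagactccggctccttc
The first match lies 32 bases before the start in S100a8 and 27 before it in 2610528A11Rik; in S100a9 it begins at the annotated start. This pattern occurs in 24.7% of the 32851 promoters listed by RefSeq. The AP-1 pattern TGANTCA, found in 7.81% of them, is in none of these 3 windows.

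BC100530, 2610528A11Rik and Stfa3 were also past 2-fold higher at day 7. BC100530, a stefin that inhibits cysteine proteases, measured 1059, 3187 and 1314 CPM at day 0, day 7 and day 42, 3.01-fold higher at day 7. It was found in 64.7%, 94.5% and 67.2% of cells, and after thinning in 41.9%, 81.4% and 50.9%. In T cells it measured 0, 87.4 and 45.1 CPM. The gene 2610528A11Rik encodes the ligand of the receptor GPR15, which guides T cells to the colon and skin. It measured 507, 1302 and 586 CPM, 2.57-fold higher at day 7, and its 10 strongest cells held 3.11% of the day 7 UMIs. Colonocytes held 281, 800 and 767 CPM of it and T cells 5.43, 48.2 and 15.05 CPM, so it was higher at day 7 outside the cluster too. Stfa3, another stefin, measured 399, 892 and 579 CPM and was found in 50.5%, 69.5% and 45.1% of cells, or 23.8%, 41.7% and 27.0% after thinning, where its day 7 log2 ratio was 0.97 and so not past 2-fold. In these 3 genes day 7 was the highest, and day 42 lay close to day 0 in the first 2. Stefin genes are near copies of each other, so reads may be split between them.

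Krt14 and Krt16, a basal and a wound keratin, were also past 2-fold higher at day 7. Krt14, the basal type I keratin, measured 1595 CPM at day 0, 3673 at day 7 and 3364 at day 42. Of the 12 named genes higher at day 7, Krt14, S100a8 and S100a9 were also past 2-fold at day 42 against day 0, as was Wfdc17 by its ratio but below the minimum of 50 CPM. Krt5, its partner, measured 737, 1073 and 1051 CPM. Krt14 was above its day 0 level at both later days in other cell types too: T cells held 308, 621 and 772 CPM, fibroblasts 489, 888 and 2440 CPM, endothelial cells 334, 1076 and 2017 CPM. The mean cluster 4 cell held 22.1, 53.1 and 24.3 Krt14 UMIs and the mean fibroblast 2.23, 5.14 and 7.53. The part of free RNA in the Krt14 ratio was not tested. Krt16, a keratin of wounded and hyperproliferative epidermis, measured 32.2, 152 and 41.0 CPM, with 43.5% of its day 7 UMIs in 10 cells. Krt6a and Krt6b, its type II partners, are near copies: Krt6a measured 576, 940 and 959 CPM and Krt6b 220, 418 and 300 CPM, neither past 2-fold.

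The remaining genes of the top 12 at day 7 by the naming rule were Slpi, Ifitm3 and Tmsb10. Slpi, a secreted leukocyte protease inhibitor, measured 64.8, 173 and 45.2 CPM. It was high in neutrophils too (3653 CPM at day 7), and 35.7% of its UMIs in cluster 4 at day 7 came from 10 cells. Ifitm3, an interferon-induced membrane protein that blocks virus entry, measured 424, 919 and 696 CPM and was found in 79.2%, 93.3% and 82.6% of cells, against 4.57%, 23.7% and 14.9% of T cells at lower depth. After thinning it was in 48.6%, 70.9% and 62.8% of cluster 4 cells and 4.39%, 8.96% and 3.85% of T cells, the last from 26 cells (interval 0.0973% to 19.6%). Its day 7 log2 ratio was 0.95 after thinning and 0.99 as a mean over cells, neither past 2-fold. It is abundant elsewhere, with 6336 CPM in lymphatic cells at day 7. Ifi27l2a, another interferon-induced gene, went the other way, with 90.8, 24.8 and 114 CPM, and only 2 of the 15 interferon response genes reached 50 CPM at day 7 or day 0. Tmsb10, an actin-binding thymosin, measured 51.5, 132 and 74.1 CPM. It was more abundant in T cells, at 1678, 1459 and 1525 CPM, and in fibroblasts, at 399, 653 and 633 CPM. Endothelial cells held 391 CPM at day 0 and 810 at day 7. Slc7a11, the cystine importer that feeds glutathione synthesis, lies below the level set for naming and was picked after its values were seen; it measured 27.8, 84.9 and 29.1 CPM. Neutrophils held 982 CPM of it at day 7, with a UMI in 82.3% of them, and the part of their RNA in the ratio was not tested.

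Trbc2, the constant region of the T cell receptor beta chain, was also picked after its values were seen. It measured 26.5, 95.02 and 29.1 CPM in cluster 4, while T cells held 488 CPM at day 7. A UMI of it was found in 47.8% of cluster 4 cells at day 7, at a median depth of 14124 UMIs, against 51.7% of T cells at 2260 and 3.65% of colonocytes at 4027. After thinning these shares were 14.7% (12.8% to 16.8%), 46.3% (34.0% to 58.9%) and 1.11% (0.508% to 2.09%). The other 7 T cell markers, among them Cd3d, Cd3e and Trac, summed to 3.10, 0.948 and 0.422 CPM, and 2 of them were at 0 at day 7. Its 10 strongest cells held 6.54% of the UMIs.

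Krt15, Dsg1a, Sbsn and F3 were among the named genes lower at day 7. Krt15, a keratin of quiescent basal cells, had the lowest ratio of the named genes: it measured 464, 74.2 and 315 CPM, with intervals of 451 to 478, 70.4 to 78.2 and 299 to 331, a log2 ratio of -2.49 at day 7. It was lower at day 7 in clusters 5, 8 and 9 as well, at 504, 691 and 342 CPM against 4589, 1214 and 3310 CPM at day 0. Other cell types differed. T cells held 39.2 against 166 CPM (13 UMIs at day 7) and endothelial cells 43.8 against 111 CPM, but fibroblasts 172 against 178 CPM. A Krt15 UMI was found in 22.2% of colonocytes at day 7 against 14.1% at day 0, and after thinning in 13.9% against 5.95%. Dsg1a, a desmosomal cadherin of differentiated layers, measured 170, 64.3 and 129 CPM; its near copy Dsg1b measured 46.2, 45.2 and 39.5 CPM. Sbsn, suprabasin, a secreted protein of suprabasal cells, measured 1294, 571 and 1042 CPM; as a mean over cells its day 7 log2 ratio was -0.90, within 2-fold. F3, tissue factor, which starts blood clotting, measured 187, 82.6 and 148 CPM, and its day 7 log2 ratio was -0.97 as a mean over cells and -0.98 after thinning, both within 2-fold. Each of these 4 genes was lowest at day 7 and at day 42 lay between day 7 and day 0.

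Of the other 8 named genes with the lowest ratios at day 7, Tmem45a2 and Ahnak2 were past 2-fold, at 102, 41.2 and 98.8 CPM and at 164, 71.2 and 136 CPM. Csta1, a cystatin of the stefin family, measured 328, 168 and 358 CPM. Cyp2f2, a cytochrome P450, measured 254, 129 and 286 CPM. Ly6g6c, Gsn (gelsolin, which severs actin), Txnip (an inhibitor of thioredoxin) and Ndrg2 had log2 ratios between -0.88 and -0.82. All 8 were lowest at day 7, and in Csta1, Cyp2f2 and Txnip day 42 was at or above day 0. Spink5, the inhibitor that restrains skin kallikreins, measured 976, 561 and 882 CPM, a log2 ratio of -0.79 at day 7.

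**Figure D3:**
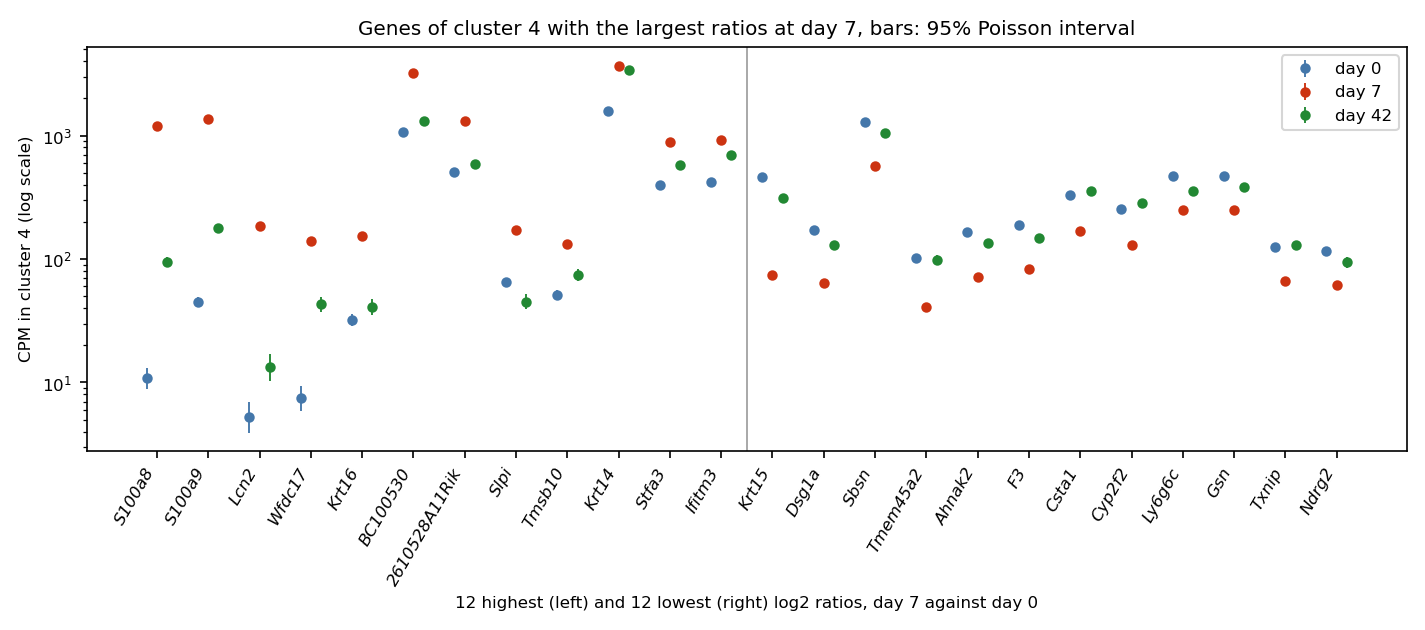
Level in cluster 4 (CPM, log scale) at each day of the 12 genes with the highest and the 12 with the lowest log2 ratio at day 7 against day 0; bars are 95% Poisson intervals on UMIs. Left of the grey line day 7 is the highest point, and right of it the lowest, with day 42 closer to day 0 for most genes other than Krt14.

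Of 22 measured transcription factors and Notch pathway genes of a list of 38, none passed 2-fold at day 7 or day 42, and their median log2 ratio was -0.13 and -0.07. Over all measured genes 1.25% were past 2-fold higher and 0.708% lower at day 7, so a count of 0 among 22 genes lies near those shares. Klf4, a regulator of barrier formation, measured 362, 407 and 311 CPM, Trp63, the master regulator of stratified epithelia, 229, 201 and 217 CPM. The members at the ends of that list were Cebpb (113, 189 and 141 CPM), an activator of differentiation genes, and Hopx (59.8, 29.8 and 44.1 CPM). Of 14 desmosome and junction genes measured at day 7, 1 was higher (Gjb2, the gap junction protein connexin 26, at 17.4, 50.2 and 21.95 CPM) and 1 lower (Dsg1a), and the median was -0.05. In 6 alternatives Gjb2 lay under 50 CPM at both days, among them thinning (46.9 CPM at day 7) and leaving out its 10 strongest cells (42.5 CPM), with its ratio still past 2-fold. Without its 10 strongest cells Dsg1a had a log2 ratio of -0.95. Dsp, desmoplakin, which ties desmosomes to keratins, measured 1149, 1121 and 1079 CPM. All 7 measured enzymes of barrier lipids, such as Elovl4 (171, 144 and 131 CPM), which makes very long acyl chains, stayed within 2-fold at both days, with medians of -0.29 and -0.31. Among 16 measured genes of the early spinous programme, Sbsn and Dsg1a were lower at day 7 and none was higher (median -0.10); Fabp5, a fatty acid carrier and the most abundant of them, measured 15025, 20139 and 13515 CPM. The 9 measured surface proteases all stayed within 2-fold at both days (medians 0.01 and -0.20), from Klk10, a kallikrein, at 0.40 to Tmprss11a at -0.42 at day 7, and Capns2, a calpain subunit, was the most abundant. Perp, a desmosome component, led the junction list, and Klf5 the transcription factors.

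Among the other lists of differentiation and barrier genes few members were past 2-fold; over all measured genes 1.25% were higher and 0.708% lower at day 7, and 0.426% and 0.0851% at day 42. Of the 7 epidermal suprabasal keratins 5 were measured at day 7, with Krt2, Krt77 and Krt80 lower, none higher and a median of -1.09; at day 42 Krt77 alone was lower (median -0.36). Of 33 genes of the granular layer and cornified envelope 10 were measured at day 7, with Lor and Crct1 higher (median 0.34) and Ivl, involucrin, the lowest (-0.98), and 94.3% of the Crct1 UMIs lay in 10 cells. Without the 10 strongest cells of each gene the day 7 log2 ratios were 0.49 for Lor and 0.40 for Crct1, and Krt2 and Krt80 kept ratios past 2-fold but lay under 50 CPM at both days. Of 13 measured serpins and other protease inhibitors Stfa3 and Slpi were higher at day 7 (median 0.36), and none of 12 passed 2-fold at day 42 (median -0.04). Of 13 calcium-binding and S100 genes the 2 past 2-fold were S100a8 and S100a9 at both days, though at day 42 not without cells with a Retnlg UMI. The 3 measured metallothioneins had medians of 0.36 and 0.26 and stayed within 2-fold, with Mt4 the highest at day 7 and Mt1 (log2 ratio 0.33) the lowest. Of 9 measured mucosal and transition zone genes Krt19 and Krt8 were lower at day 7 (median -0.70) and none passed 2-fold at day 42 (median 0.17). After thinning the day 7 log2 ratios of Krt19 and Krt8 were -0.29 and -0.45.

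Markers of other cell types were summed for each list. The summed level at day 0, day 7 and day 42 was 128, 51.5 and 115 CPM for 13 colonocyte genes and 52.1, 23.3 and 30.8 CPM for 8 fibroblast genes. The 8 endothelial genes summed to 1.45, 7.11 and 1.90 CPM, with 4, 0 and 4 at 0, and the 6 melanocyte genes to 2.58, 1.68 and 3.38 CPM, with 3, 3 and 4 at 0. The 10 genes of mononuclear myeloid cells gave 64.9, 22.5 and 12.9 CPM. Sebaceous genes gave 663, 644 and 586 CPM, led by Mgst1, and hair follicle genes 130, 92.6 and 102 CPM, led by Gata3. Only the 10 neutrophil genes (76.7, 2746 and 328 CPM, with 3, 0 and 0 at 0) and Trbc2 among the 8 T cell genes (29.6, 96.0 and 29.6 CPM) were highest at day 7 by more than 2-fold at levels over 50 CPM.

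Lists tied to injury, chosen with earlier results of these data known, stood apart in a few members. Of 11 measured genes of the wound and hyperproliferation list, S100a8, S100a9, Krt16 and Sprr1b were past 2-fold higher at day 7, against 1.25% of all measured genes. None was lower, and the median was 0.70. At day 42 S100a8 and S100a9 remained past 2-fold of 10 measured, but not without cells with a Retnlg UMI. There 78.0% of the S100a8 UMIs lay in 10 cells. Without those 10 cells S100a8 stood at 20.9 CPM at day 42, below the minimum of 50 CPM, with a log2 ratio of 1.37. Sprr1b, a small proline-rich precursor of the cornified envelope, measured 112, 245 and 59.95 CPM, highest at day 7 and lowest at day 42, with a day 7 log2 ratio of 1.06 that was 0.95 without cells with a Retnlg UMI, while Sprr1a measured 876, 512 and 692 CPM. Of 34 cytokine and antimicrobial genes only 5 reached 50 CPM at day 7 or day 0. Lcn2, Slpi, Cxcl2 and Il1b were past 2-fold, with a median of 2.22 that ranged from 1.01 to 3.05 over the alternatives, and Defb1, a beta defensin, was just inside it at 30.1, 69.5 and 23.2 CPM. Cxcl2 and Il1b, a neutrophil attractant and a cytokine, stood at 12525 and 11232 CPM in neutrophils at day 7 and at 81.0 and 74.0 CPM in cluster 4. Without the cells with a Retnlg UMI they stood at 15.4 and 17.7 CPM at day 7, with log2 ratios of 1.01 and 0.62. Without the cells with the highest doublet scores they stood at 24.7 and 24.5 CPM, and without their 10 strongest cells at 37.3 and 37.1 CPM, all below the minimum of 50 CPM. The log2 ratios stayed past 2-fold there, at 1.65 and 1.69 in the first case and 2.24 for both genes in the second. Of the basal layer list, 8 genes were measured at day 7, with Krt14 higher, Krt15 lower and a median of -0.45. The sum of 16 cell division genes was 549, 754 and 576 CPM, and Mki67, a marker of dividing cells, measured 6.93, 12.1 and 9.08 CPM against 207, 200 and 175 CPM in cluster 9. Oxidant defence (11 measured, median 0.07), glycolysis (10 measured, median 0.05) and immediate early and heat shock genes (17 measured, median 0.24) gave 1 gene past 2-fold at day 7, Slc7a11. At the ends of these lists stood Pkm, a pyruvate kinase, at 0.31 and Ndrg1 at -0.48 for glycolysis and hypoxia, Fosb, an AP-1 subunit, at 0.91 and Btg2 at -0.34 for immediate early genes, and Gstm1, a glutathione transferase, at -0.76 for oxidant defence. Their most abundant members were Gapdh, Hsp90ab1 and Gsta4.

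Keratins 2 and 77, which mark late spinous layers of particular skin sites, and loricrin and filaggrin were held by few cells, and their ratios rest on those cells. Krt77 measured 547, 13.1 and 162 CPM, with intervals of 532 to 562, 11.5 to 14.8 and 150 to 174. At day 0, 75.5% of its UMIs lay in 10 cells. Krt2 measured 313, 31.7 and 323 CPM, with 86.6%, 97.8% and 87.4% of UMIs in 10 cells. Counted as cells with at least 5 UMIs, Krt77 carriers were 43 of 697 at day 0 (6.17%, interval 4.50% to 8.22%), 5 of 1315 at day 7 (0.380%, 0.124% to 0.885%) and 11 of 656 at day 42 (1.68%, 0.840% to 2.98%). Krt2 carriers were 23 (3.30%, 2.10% to 4.91%), 10 (0.760%, 0.365% to 1.39%) and 23 cells (3.51%, 2.24% to 5.21%). Carriers of both keratins were thus the smallest share at day 7, with counting intervals below those of day 0; Krt2 carriers at day 42 were as frequent as at day 0 and Krt77 carriers fewer. Both marks met in 12, 1 and 3 cells. In the other 9 keratinocyte clusters Krt2 stayed at or below 2.83 CPM with days summed, against 154 CPM in cluster 4.

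Krt2 and Krt77 are neighbours of Krt1 in the type II keratin cluster of chromosome 15, Krt2 at chr15:101810689-101818956, Krt1 at chr15:101845426-101850786 and Krt77 at chr15:101858731-101869706 (GRCm38.p6). Krt1, between them, kept its level. Their promoters are shown beside that of Krt10, the type I partner of this layer on chromosome 11, with capitals as above; the table has no entry for Krt1, Krt15, Krt16 or BC100530.
Krt2 (chr15:101818120-101818419, - strand): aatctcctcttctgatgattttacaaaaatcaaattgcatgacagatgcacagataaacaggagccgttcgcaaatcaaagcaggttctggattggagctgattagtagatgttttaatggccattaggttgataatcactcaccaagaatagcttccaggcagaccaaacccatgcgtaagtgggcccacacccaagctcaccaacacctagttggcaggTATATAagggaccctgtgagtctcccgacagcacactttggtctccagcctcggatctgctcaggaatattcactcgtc
Krt77 (chr15:101869656-101869955, - strand): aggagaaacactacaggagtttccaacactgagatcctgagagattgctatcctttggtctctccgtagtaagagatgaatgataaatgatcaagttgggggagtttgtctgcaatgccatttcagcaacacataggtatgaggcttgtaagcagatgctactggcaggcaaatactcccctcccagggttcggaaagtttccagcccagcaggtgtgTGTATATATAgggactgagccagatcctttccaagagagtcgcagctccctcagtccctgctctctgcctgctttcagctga
Krt10 (chr11:99389315-99389614, - strand): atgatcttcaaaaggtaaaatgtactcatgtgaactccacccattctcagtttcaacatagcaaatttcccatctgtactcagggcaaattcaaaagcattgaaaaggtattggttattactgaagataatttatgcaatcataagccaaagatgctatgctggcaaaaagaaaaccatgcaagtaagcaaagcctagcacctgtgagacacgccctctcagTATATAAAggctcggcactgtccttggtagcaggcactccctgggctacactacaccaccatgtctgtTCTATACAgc
The pattern TATANA begins 29 bases before the start in Krt2, 32 before it in Krt77 and 28 before it in Krt10. The AP-1 pattern TGANTCA is in none of the 3 windows. A match or its absence in such a window describes the letters only.

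Loricrin and filaggrin, the main proteins of the granular layer, were also in few cells. Lor measured 32.2, 124 and 170 CPM, with 81.4%, 90.0% and 96.0% of its UMIs in 10 cells, and at least 5 UMIs in 5, 21 and 7 cells. Flg measured 72.0, 146 and 120 CPM, with at least 5 UMIs in 10 (1.43%, 0.690% to 2.62%), 24 (1.83%, 1.17% to 2.70%) and 8 cells (1.22%, 0.528% to 2.39%). For these shares of Flg carriers the intervals of the 3 days overlap. Carriers of Lor and of Krt2 were different cells but for 1, 0 and 1. By the rule for naming genes, genes with over 50% of their UMIs in 10 cells were set aside; beside Krt77, Krt2, Lor, Flg and Retnlg these were Wfdc21, Slurp1, Krt79, Krt17, Cst6 and Orm1, and S100a9 at day 42.

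**Figure D4:**
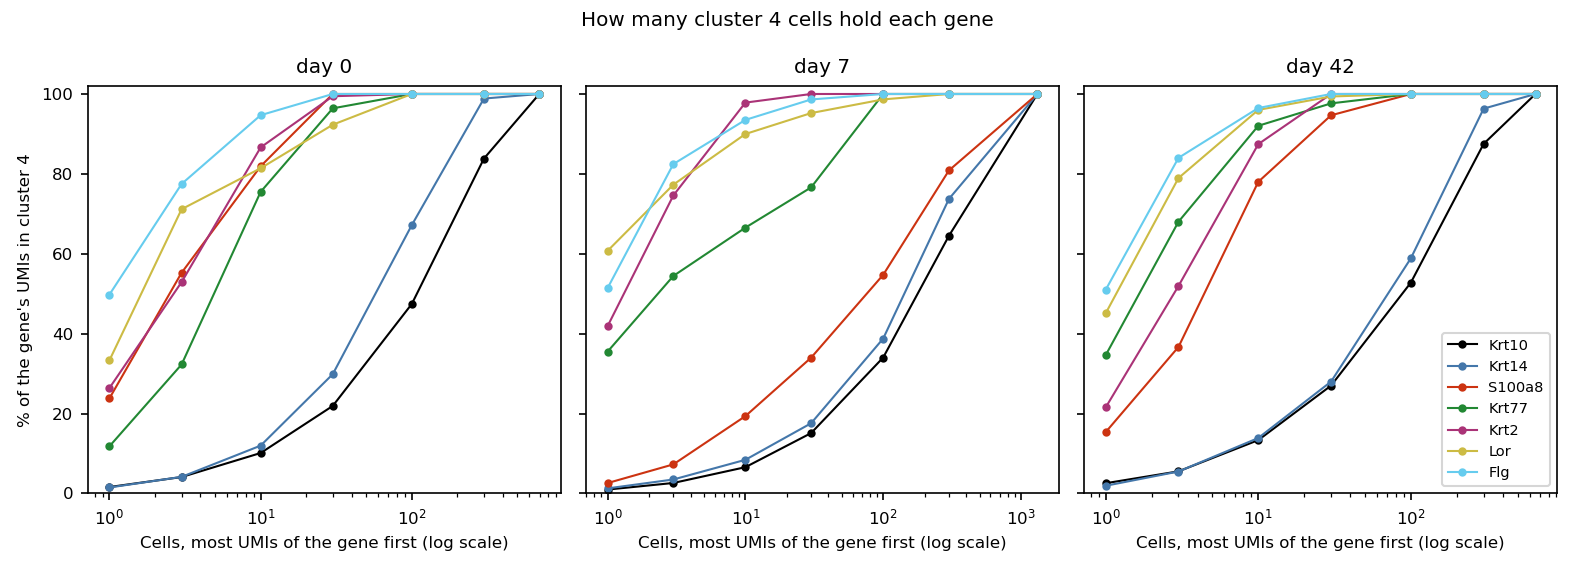
Share of a gene's UMIs in cluster 4 held by its strongest cells (x axis, number of cells, log scale) at each day. Krt10 and Krt14 spread over many cells (10.1% and 11.96% in 10 cells at day 0), S100a8 does so only at day 7 (19.3% in 10 cells, against 81.9% at day 0), and Lor, Flg, Krt2 and Krt77 keep most UMIs in 10 cells at all 3 days.

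At day 42 few genes differed from day 0. Besides Krt14, the genes with the highest ratios by the naming rule were Wfdc2, a secreted protein of whey acidic type, at 86.1, 79.7 and 186 CPM, and Ecm1, an extracellular matrix protein of the skin, at 62.5, 47.6 and 125 CPM. Both were highest at day 42, with 34.6% and 47.7% of UMIs in 10 cells there. After thinning to 2000 UMIs, which also left out the shallower cells, Krt14 and Wfdc2 were inside 2-fold at day 42. Both were also inside it as a mean over cells (log2 ratios 0.85 and 0.78). Wfdc2 was inside it too without cells with a Retnlg UMI (0.94), without the highest doublet scores (0.83) and without its 10 strongest cells (0.82). Gpx2, a glutathione peroxidase of epithelia, measured 156, 190 and 242 CPM, and Epcam, an epithelial adhesion molecule, 78.7, 62.5 and 125 CPM. Krt6a, Ifitm3, Stfa3 and Krt5, given above, also stood among the 12, with log2 ratios of 0.72, 0.70, 0.53 and 0.51, inside 2-fold. Gm10076 and Kcnq1ot1 stood at 0.74 and 0.48. By the same rule the lowest ratio was that of Lars2, a mitochondrial leucyl-tRNA synthetase, at 383, 258 and 194 CPM. Krt77 and the haemoglobin gene Hbb-bs, which the rule excludes, had lower log2 ratios (-1.70 and -2.69). Gm42418, a locus that overlaps ribosomal RNA, was also among the lowest, at 14700, 11450.5 and 10115 CPM. Sprr1b, Igfbp2 (459, 285 and 278 CPM), which binds insulin-like growth factors, Serpinb12, Krt15, Calm4, Fdps (259, 278 and 179 CPM), an enzyme of cholesterol synthesis, Gja1 (637, 628 and 445 CPM), the gap junction protein connexin 43, Dgat2 (120, 73.2 and 81.7 CPM), which makes triglycerides, Klk8 and H1f0 completed the 12, with log2 ratios between -0.81 and -0.45, none past 2-fold. Against day 7, the 5 highest genes at day 42 were Krt15, Ifi27l2a, Ecm1, Wfdc2 and Krt7 (log2 ratios 1.95, 1.83, 1.23, 1.13 and 1.12), and the 5 lowest S100a8, Lcn2, S100a9, Sprr1b and Slpi (-3.52, -3.08, -2.86, -1.87 and -1.73).

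Within cluster 4 the cells ranged from epidermal to mucosal keratins. For each cell with at least 10 UMIs of Krt10, Krt1, Krt13 and Krt4 together, the share from Krt10 and Krt1 was taken. It was over 75% in 513 of 693 cells at day 0 (74.0%, interval 70.6% to 77.3%), 1057 of 1294 at day 7 (81.7%, 79.5% to 83.8%) and 466 of 621 at day 42 (75.04%, 71.4% to 78.4%). It was below 25% in 30 (4.33%), 73 (5.64%) and 39 cells (6.28%), and 150, 164 and 116 cells lay between. The ranges are cut from a continuous share, with 56, 56 and 33 cells within 5 percentage points of the 75% limit. Krt13, the mucosal suprabasal keratin, had more UMIs than Krt10 in 13.3%, 12.9% and 16.5% of cells.

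Both ends of this range carried other genes that the share did not use. Mt4 measured 1724, 2723 and 1985 CPM in cells over 75% and 12.8, 61.4 and 0 CPM in cells below 25%. Stfa3 measured 521, 1076 and 791 CPM at the epidermal end and 10.7, 18.2 and 7.14 CPM at the mucosal end, and Dsg1a 227, 77.6 and 178 against 0, 3.84 and 0 CPM. Every Krt2 carrier at each day lay in the range over 75%. At the mucosal end stood Krt6a, with 3551, 6870 and 4349 CPM against 170, 276 and 363 CPM over 75%, and Gsta4, a glutathione transferase that detoxifies lipid peroxides, with 3581, 3073 and 3803 against 597, 520 and 638 CPM. Sprr3, a small proline-rich protein of mucosal squamous epithelium, measured 179, 489 and 264 against 0.556, 1.16 and 0.595 CPM, and Psca, a surface protein, 514, 696 and 682 against 1.81, 5.28 and 27.7 CPM. Ly6d, a surface protein of squamous cells, was alike in both, at 4471, 5100 and 4856 CPM below 25% and 4562, 4367 and 4403 CPM over 75%.

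The day 7 differences in Krt14, Krt15 and 2610528A11Rik were present in all 3 ranges. From below 25% to over 75% the log2 ratios at day 7 were 2.04, 0.97 and 1.36 for Krt14, -3.34, -2.57 and -2.17 for Krt15, and 1.51, 1.28 and 1.36 for 2610528A11Rik. S100a8 at day 7 was graded along the range, with 300 CPM below 25%, 465 between and 1368 over 75%, and Lcn2 with 23.0, 48.5 and 218 CPM, while Retnlg measured 45.1, 9.71 and 160 CPM. S100a9 was not graded, with 1008, 922 and 1461 CPM at day 7, and below 25% it already stood at 578 CPM at day 0, a log2 ratio of 0.79 there. Calm4 was lower at day 7 below 25% (3731 against 1042 CPM) and between (3400 against 1157 CPM), and less so over 75% (7237 against 5934 CPM). Median depth was alike in the 3 ranges of a day, 12537 to 13305 UMIs at day 0, 12837 to 14394 at day 7 and 6486 to 6842 at day 42.

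**Figure D5:**
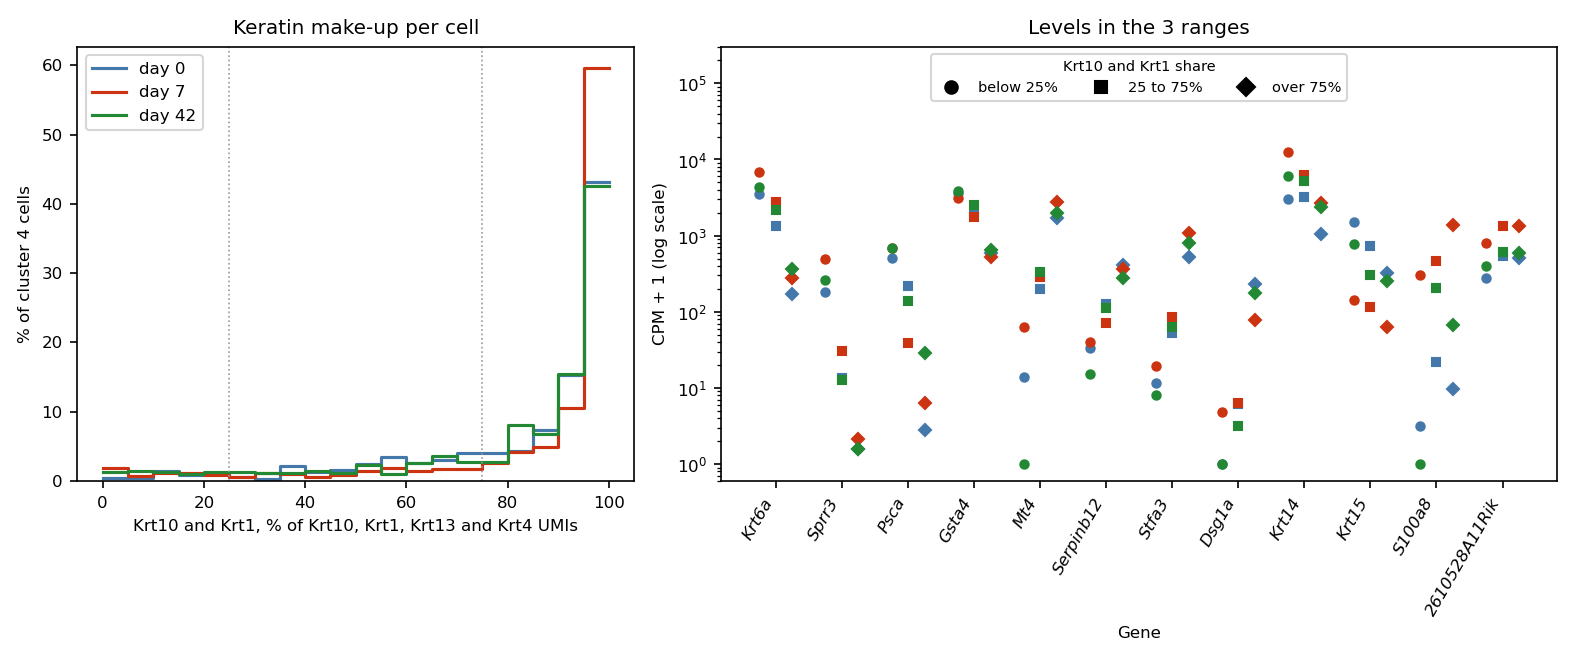
Left, distribution of the share of Krt10 and Krt1 among the UMIs of 4 suprabasal keratins for each cluster 4 cell, by day, with the limits at 25% and 75% dotted. Right, level of 12 genes (CPM plus 1, log scale) in the 3 ranges of that share, with colour for day and shape for range; Krt6a, Sprr3, Psca and Gsta4 decline from left to right within a gene and Mt4, Stfa3 and Dsg1a climb.

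BC100530 and 2610528A11Rik were higher at day 7 in clusters 8 and 9 too. BC100530 measured 463, 955 and 646 CPM in cluster 8 and 170, 1164 and 261 CPM in cluster 9 at day 0, day 7 and day 42, and 2610528A11Rik 130, 304 and 224 CPM and 158, 566 and 241 CPM. In cluster 5 the first stood at 86.7, 61.8 and 13.1 CPM. Krt14 in clusters 8 and 9 measured 4415, 5644 and 4992 CPM and 9326, 10602 and 10746 CPM, a smaller difference in log2 (0.35 and 0.18) than the 1.20 of cluster 4. Sbsn measured 476, 359 and 366 CPM in cluster 8. Whether any of these differences between clusters exceeds the spread between mice could not be tested with 1 library a day.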

How the data were processed

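Single cells of 3 libraries, 1 for each day, were measured. The authors deposited 1 matrix of whole-number UMI counts per gene and cell (31053 genes, 37080 cells), with no normalization, per the file headers. Cell Ranger 3.0.2 and the build mm10 are named in the submitters' processing notes. The method of clustering and the filter on cells are not given in the sources used here. The deposited cell table gives the day, the cluster, the annotation and a size factor, the ratio of a cell's total to the geometric mean of all totals, which was used only to check that cells stand in the order of the matrix.

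Counts of cluster 4 were summed for each day and divided by their total to give CPM. Ratios were taken on log2(CPM + 10) for genes that reached 50 CPM in 1 or both libraries, and a gene was past 2-fold at a log2 ratio of 1. No test between days was made, since each day is 1 library. The text names the 12 highest and 12 lowest ratios against day 0, and the 5 highest and lowest at day 42 against day 7, among genes that reached 100 CPM; genes with over 50% of the UMIs of the higher library in 10 cells were set aside, and mitochondrial, ribosomal protein, haemoglobin and immunoglobulin genes left out. It also names the markers and members of 28 gene lists, 9 of them markers of other cell types. Not every gene that this rule names is reported here. The members and lists were chosen with earlier results of these data known. The computation was tested on simulated data. Alternatives were other scalings, pseudocounts, minimum levels, filters on cells, thinning and leaving out doublet candidates; leaving out cells with a Retnlg UMI and keeping only the range over 75% were chosen after seeing the data. Promoters were matched by symbol in the RefSeq table for 14 of 18 genes looked for. Python 3.11.15, numpy 2.4.6, scipy 1.17.1, pandas 2.3.3, scanpy 1.11.5 (Scrublet) and matplotlib 3.10.9 were used.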

Additional observations from a re-analysis of the deposited data

Results flagged for a closer look

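For 4 named genes another keratinocyte cluster went past 2-fold in the direction opposite to cluster 4; none of these differences was tested, as each day is 1 library. Krt16 had a log2 ratio of -1.39 at day 7 against day 0 in cluster 17 (759 to 284 CPM) and 1.94 in cluster 4. In cluster 12, which holds 51 cells at day 0, Slpi had a ratio of -1.67 at day 7 (539 to 163 CPM) against 1.29 in cluster 4, and Sprr1b a ratio of -2.16 (178 to 32.1 CPM, from 28 UMIs at day 0) against 1.06. At day 42 against day 0, S100a8 had a ratio of -1.21 in cluster 12 (101.5 to 38.3 CPM, from 16 and 8 UMIs) and 2.33 in cluster 4.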

How the results depend on the processing

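No paired analysis was possible because each day is 1 library. Of the markers and the genes named by rule, 20 were past 2-fold at day 7 against day 0. All 20 kept their direction in every alternative, with 17 to 20 still past it. At day 42 the 5 with such a ratio, Wfdc17 below 50 CPM among them, kept theirs, with 1 to 5 still past it. List members outside this set are not counted here. Among those, Lor, Crct1, Krt19, Krt8 and Il1b fell inside 2-fold at day 7 in some alternatives. Other scalings moved the median of all genes by at most 0.06. The counts of genes past 2-fold depended on the settings. At day 7 the 30 higher genes became 47 with a minimum of 10 CPM and 8 with 200 CPM, and the 17 lower genes 38 and 4, 28 with totals without mitochondrial and ribosomal protein genes, and 9 without the 10 strongest cells of each gene. At day 42 against day 0 the 10 higher genes became 22 and 1 at these minimums, 17 with those totals, 6 after thinning and 3 without the strongest cells, and the 2 lower genes 9 and 1, 5 as a mean over cells and 8 after thinning. At day 42 against day 7 the 19 higher genes became 36 and 4, 34 with those totals, 11 as a mean over cells, 12 after thinning and 6 without the strongest cells, and the 21 lower genes 32 and 6. The share of keratinocytes was 24.3% at day 0 and 22.02% at day 7 without clusters 12, 13, 17 and 26. The cause was not tested, apart from the number of genes that a minimum admits.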
